A study of Mus musculus with 9 samples.

Results

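The genes described here are the suppressors of cytokine signalling Socs1, Socs2, Socs3 and Cish and the transcription factors Stat3, Stat4, Stat5a, Stat5b and Stat6, 9 of the 24054 genes listed in the deposited tables. They were taken by symbol, from a list drawn up with earlier results of these data known, and all 9 were tested, as were 14452 genes in all whose counts averaged at least 1 a library. The study sequenced mRNA of splenic type 2 dendritic cells (DC2), which present antigen to CD4+ T cells, to ask how these cells differ by origin and by age. All 9 libraries came from C57BL/6 mice of the genotype Clec9a-Cre/Cre Rosa-tdTomato/tdTomato. Cre is driven by the Clec9a locus in these mice, so that TOMATO (TOM) marks cells with a history of Clec9a expression, and both copies of Clec9a carry the insertion in every group. Live, single, autofluorescence-negative cells bearing MHCII, CD11c and CD11b were sorted and divided by TOM. The groups were TOM+ cDC2 from mice of postnatal day 8 (3 libraries), TOM- DC2 from mice of the same age (3 libraries) and TOM+ cDC2 from adult mice (3 libraries, 1 from mice of 9 weeks and the others from mice of 8 weeks). Adult TOM- DC2 were not analysed here, so that young TOM- DC2 could be compared with adult cells only across the sort gate. For the young groups, spleens of several mice went into each sort. The labels number no replicates and name no separate animals, and the p-values therefore measure only the spread between these libraries.

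Cytokine receptors without an enzyme of their own signal through bound Janus kinases (JAKs), which phosphorylate the receptor and then a STAT protein that pairs up, enters the nucleus and switches on target genes. Among those targets are the SOCS genes, whose proteins bind the receptor or the kinase and shut the signal off, which makes them a readout of recent signalling as well as a brake on it. In dendritic cells, STAT3 is known for its part in Flt3 ligand-driven development and in the response to IL-10 and IL-6, STAT4 for the response to IL-12, STAT5A and STAT5B for the response to GM-CSF and TSLP, and STAT6 for the response to IL-4 and IL-13.

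Most STAT pairs bind DNA at a palindrome of TTC, 3 bases of any kind and GAA. This motif, TTCNNNGAA, was found in 8.3% of 32851 mouse promoters of RefSeq (build GRCm38.p6, 250 bases before to 50 bases after the start site; the motif is its own reverse complement, so that both strands are covered). Of the 8 genes with a promoter entry (no entry for Socs2), 2 held it, and the 30 bases around the matches are shown because Cish and Socs3 were also the genes higher in young than in adult TOM+ cDC2. Capitals mark TTCNNNGAA.
Cish, chr9:107296654-107296683, plus strand: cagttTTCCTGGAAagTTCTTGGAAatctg
Socs3, chr11:117969501-117969530, minus strand: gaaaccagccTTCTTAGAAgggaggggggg
The matches in Cish begin at bases 1 and 12 counted from the RefSeq start site, within the 5′ UTR of a longer GENCODE M21 transcript of Cish, and 0.457% of all promoters held 2 or more. The match in Socs3 begins 154 bases before the start site of its RefSeq promoter entry. It lies within the full RefSeq span of the gene (chr11:117966079-117970336) and in an intron of a longer non-coding GENCODE transcript of Socs3. The wider motif with 4 free bases, TTCNNNNGAA, which STAT6 prefers and which is also its own reverse complement, was found in 6.95% of all promoters and in none of the 8 genes. A match describes these letters only, and its absence covers only this window.

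The libraries held 12783252 to 22809401 reads counted on genes. The defining genes of cDC2 were present throughout: of the 10 listed, none was at 0 in any group, and Cd74, the MHCII invariant chain, was the most abundant at 44900 ± 2240, 43100 ± 2200 and 63200 ± 1500 TPM (mean ± SD, n = 3) in young TOM+ cDC2, young TOM- DC2 and adult TOM+ cDC2. TPM are RSEM's transcript levels, corrected for length and relative to each library, so that levels of different genes can be compared on this scale. Differences were tested on counts with edgeR's quasi-likelihood test, and given as log2FC with SE and Benjamini-Hochberg adjusted p (padj) over all 14452 genes. A gene passed at a padj under 0.05 and was called when its log2FC was also beyond 1 in either direction. In sorted bulk RNA, fewer cells of a type and less RNA per cell cannot be told apart.

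Most of these genes differed between young and adult cells, in opposite directions for Cish and the STAT genes. Between young TOM+ cDC2 and young TOM- DC2 none of the 9 passed by edgeR, where 1.6% of all tested genes passed and 1.18% were called. Of the 9, 1 had an unadjusted p under 0.05, and 0 passed with DESeq2 or in any other setting tried. Between young and adult TOM+ cDC2, 8 of 9 passed, against 40.6% of all genes. Of these, 2 were higher in young cells (21% of all genes) and 6 in adult cells (19.5% of all genes), and 4 were called, against 12.8% of all genes. Between young TOM- DC2 and adult TOM+ cDC2, 7 of 9 passed, against 36.3% of all genes, 1 higher in young cells (19.4% of all genes) and 6 in adult cells (16.9% of all genes), and 3 were called, against 11.3% of all genes. The median log2FC of the 9 genes was -0.43 and -0.55 in these comparisons, against 0.05 and 0.07 over all genes. With limma on log2(TPM + 1), 6 of the 9 passed in each comparison with adults. In that fit 4074 of 6047 passing genes were higher in young than in adult TOM+ cDC2, against 3039 of 5861 with edgeR, and 4318 of 5915 were higher in young TOM- DC2 than in adult TOM+ cDC2, against 2809 of 5247. Both comparisons use the same adult libraries and are therefore not independent.

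**Figure D1:**
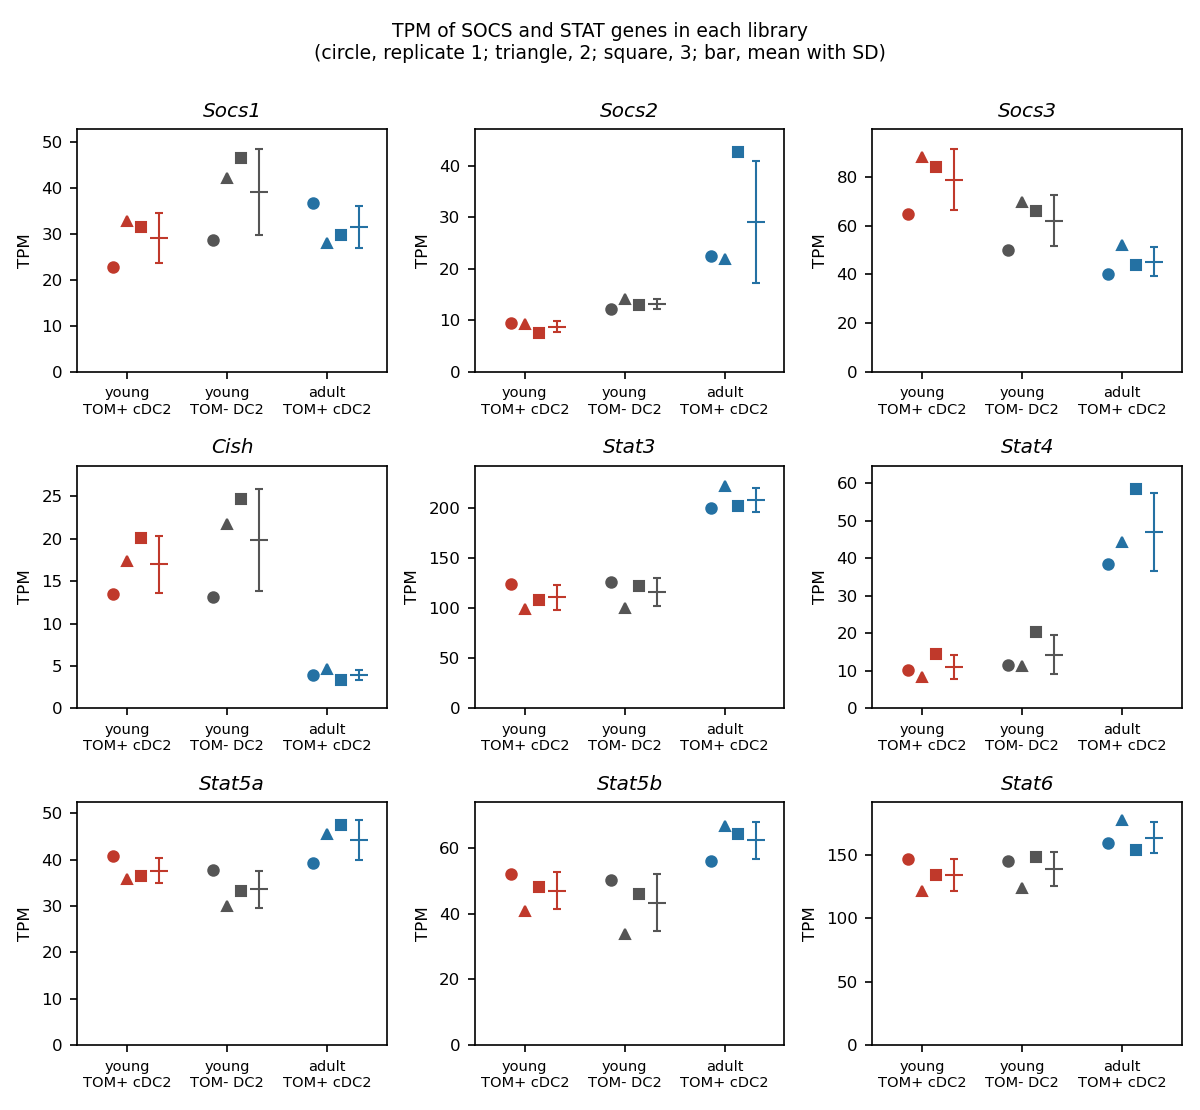
TPM of each of the 9 genes (y axis, linear, from 0) in the 3 libraries of each group (x axis), with the group mean and SD as a bar beside the points. Cish lies at 13.1 to 24.67 TPM in the 6 young libraries and at 3.4 to 4.6 in the adult libraries, while Stat3 and Stat4 lie higher in every adult library than in any young library.

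Cish encodes CIS, which is induced by STAT5 and binds activated cytokine receptors. Its level was 13.44, 17.39 and 20.1 TPM in young TOM+ cDC2, 13.1, 21.7 and 24.67 in young TOM- DC2, and 3.94, 4.6 and 3.4 in adult TOM+ cDC2. All 6 young libraries thus lay well above all adult libraries, and the young groups overlapped. Cish was higher in young than in adult TOM+ cDC2 by a log2FC of 1.99 (SE 0.27, padj = 0.000103), a 3.96-fold difference, and higher in young TOM- DC2 than in adult TOM+ cDC2 by 2.19 (SE 0.27, padj = 6.04e-05). The adult values rest on 62, 74 and 72 reads, the young ones on 238 to 735. Cish was the only one of the 4 SOCS genes that was called in the young direction, and by mean TPM it was the lowest of the 9 genes in adult cells.

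Socs2, known for limiting growth hormone signalling, went the other way. It measured 9.37, 9.3 and 7.56 TPM in young TOM+ cDC2, 12.26, 14.11 and 13.04 in young TOM- DC2, and 22.54, 21.87 and 42.63 in adult TOM+ cDC2. No adult library overlapped a young one, and adult replicate 3 stood far above the other adult libraries. The log2FC was -1.82 (SE 0.23, padj = 6.58e-05) between young and adult TOM+ cDC2 and -1.38 (SE 0.23, padj = 0.000505) between young TOM- DC2 and adult TOM+ cDC2. Without adult replicate 3 these values were -1.46 (padj = 9.11e-05) and -1.03 (padj = 0.000936). Uniquely mapped reads were 54.1% to 66.8% of the reads that RSEM assigned to Socs2, so that its counts depend on how reads with several positions are treated. On RSEM's expected counts the differences were -1.89 (padj = 4.37e-05) and -1.34 (padj = 0.000519).

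Genes of mature or migratory dendritic cells were mostly higher in adults as well. Their summed level was 3040 to 3140 TPM in young TOM+ cDC2, 3570 to 3860 in young TOM- DC2 and 8690 to 11200 in adult TOM+ cDC2. Between young and adult TOM+ cDC2, 9 of 10 passed, all 9 higher in adults. Of all genes, 40.6% passed in this comparison, and 19.5% passed with the higher level in adults. None of the 10 was at 0 in any group. Cd83, the most abundant of them, measured 1460 ± 99.3, 1800 ± 94.2 and 4310 ± 450 TPM (SD, n = 3). In adult replicates 1, 2 and 3 it measured 4039.26, 4062.79 and 4830.92 TPM. Among the adult libraries, replicate 3 was the highest in each of the 10 genes, as it was in Socs2. Genes of ESAM-high cDC2, the population that dominates adult spleen, summed to 298 to 399, 365 to 466 and 737 to 764 TPM, with 4 of 5 passing, all higher in adults, and none at 0. Of the 5 listed genes of ESAM-low cDC2, 4 passed in the same comparison, 3 higher in young and 1 in adult cells. Of the 10 listed genes of cDC2, 9 passed, 2 higher in young and 7 in adult cells. The part of these cell types in the differences of Socs2 and of the other genes between young and adult cells was not tested.

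Socs3, which docks on the shared IL-6 receptor chain gp130 and restrains STAT3, was the most abundant SOCS gene in each group. It measured 64.69, 88.13 and 84.02 TPM in young TOM+ cDC2, 50.16, 69.9 and 66.09 in young TOM- DC2, and 40.19, 52 and 43.74 in adult TOM+ cDC2. Young TOM+ cDC2 lay above adult TOM+ cDC2 in every library, whereas young TOM- DC2 overlapped both other groups. Socs3 was higher in young than in adult TOM+ cDC2 by a log2FC of 0.68 (SE 0.18, padj = 0.00861), a 1.6-fold difference. Between young TOM- DC2 and adult TOM+ cDC2 the log2FC was 0.31 (SE 0.18, padj = 0.194). This difference passed in a fit with the number of the young libraries as a replicate block (log2FC 0.28, padj = 0.0322) and without young TOM- DC2 replicate 1 (0.47, padj = 0.0383).

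Socs1, an inhibitor of JAKs best known for restraining the response to interferon-gamma, had overlapping ranges in all groups. It measured 22.87, 32.76 and 31.59 TPM in young TOM+ cDC2, 28.61, 42.28 and 46.58 in young TOM- DC2, and 36.69, 28.05 and 29.75 in adult TOM+ cDC2. Every pair of groups overlapped. The log2FC was -0.21 (SE 0.21, padj = 0.452) between young and adult TOM+ cDC2 and 0.19 (SE 0.21, padj = 0.502) between young TOM- DC2 and adult TOM+ cDC2, and neither passed.

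Stat3 was higher in adult cells, with little spread between libraries. It measured 124.59, 99.71 and 108.22 TPM in young TOM+ cDC2, 126.53, 100.36 and 121.92 in young TOM- DC2, and 199.82, 222.4 and 202.66 in adult TOM+ cDC2. The lowest adult library lay above the highest young one by more than the SD of any group (12.6, 14 and 12.3 TPM). The log2FC was -1.05 (SE 0.1, padj = 6.05e-06) between young and adult TOM+ cDC2, a 2.07-fold difference, and -0.996 (SE 0.097, padj = 1.23e-05) between young TOM- DC2 and adult TOM+ cDC2. The latter value lay just inside the limit of a log2FC of 1 and was not counted as called. Stat3 was called in 11 of 19 other settings in that comparison, DESeq2 (-1.02) among them, so that the count of called genes there is 3 or 4 by setting. Between young and adult TOM+ cDC2 it was called in 15 of 19, and not with limma (-0.91 on log2(TPM + 1)), without young TOM+ cDC2 replicate 2 (-0.998) or without adult replicate 2 (-0.989).

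Stat4 differed most of the 5 STAT genes. It measured 10.27, 8.34 and 14.58 TPM in young TOM+ cDC2, 11.44, 11.25 and 20.3 in young TOM- DC2, and 38.41, 44.23 and 58.44 in adult TOM+ cDC2. No adult library overlapped a young one, and replicate 3 was the highest library in each group. The log2FC was -2.24 (SE 0.25, padj = 2.44e-05), a 4.72-fold difference, between young and adult TOM+ cDC2 and -1.88 (SE 0.25, padj = 9.59e-05) between young TOM- DC2 and adult TOM+ cDC2. T cells and NK cells also express Stat4. The 7 listed T cell genes summed to 27.6 to 28.5 TPM in young TOM+ cDC2, 38.4 to 39.8 in young TOM- DC2 and 21.6 to 32 in adult cells, led by Cd5, and 5, 5 and 6 of the 7 were under 1 TPM. The 6 listed NK cell genes summed to 198 to 256, 194 to 218 and 235 to 313 TPM. Klrd1 made up nearly all of this, 5 of the 6 genes were under 1 TPM in each group, and Ncr1, Eomes and Gzma were at 0 in adult cells.

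Stat5a and Stat5b, the near-identical mediators of GM-CSF signalling, were modestly higher in adults. Stat5a measured 40.71, 35.7 and 36.41 TPM in young TOM+ cDC2, 37.77, 29.91 and 33.14 in young TOM- DC2, and 39.36, 45.57 and 47.54 in adult TOM+ cDC2. Its young TOM+ range overlapped that of adults, and its young TOM- range lay under it. Stat5b measured 52.07, 40.98 and 48.15 TPM in young TOM+ cDC2, 50.4, 33.75 and 46.07 in young TOM- DC2, and 56.03, 66.9 and 64.23 in adult TOM+ cDC2, with both young groups under all adult libraries. Between young and adult TOM+ cDC2 the log2FC was -0.37 (SE 0.083, padj = 0.0036) for Stat5a and -0.56 (SE 0.11, padj = 0.00181) for Stat5b. Between young TOM- DC2 and adult TOM+ cDC2 it was -0.55 (SE 0.083, padj = 0.000287) for Stat5a and -0.70 (SE 0.11, padj = 0.000485) for Stat5b. The former pair of differences did not pass when log2(TPM + 1) was tested with limma (Stat5a -0.22, padj = 0.125; Stat5b -0.40, padj = 0.0578). Uniquely mapped reads were 78% to 85% of the reads RSEM assigned to Stat5a and 84.1% to 88.4% of those assigned to Stat5b, against 100% to 112% for the genes other than these and Socs2.

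Within the pair, Stat5a made up 44.5% ± 1.83 of the summed TPM in young TOM+ cDC2, 43.9% ± 2.73 in young TOM- DC2 and 41.4% ± 1.02 in adult TOM+ cDC2 (SD, n = 3). The exact two-sided permutation test gave p = 0.7 between the young groups, 0.1 between young and adult TOM+ cDC2 and 0.2 between young TOM- DC2 and adult TOM+ cDC2 (0.7, 0.3 and 0.3 after Benjamini-Hochberg adjustment over the 3 comparisons). With 3 libraries against 3 this test cannot go under 0.1, so that no difference in the balance of both genes could have passed.

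Stat6, the mediator of IL-4 and IL-13 signalling, was the most abundant of the 9 genes in both young groups. It measured 146.39, 121.21 and 133.99 TPM in young TOM+ cDC2, 144.8, 123.67 and 148.4 in young TOM- DC2, and 158.92, 177.54 and 153.84 in adult TOM+ cDC2. The adult libraries lay above the young ones, by a narrow margin. The log2FC was -0.43 (SE 0.097, padj = 0.00364) between young and adult TOM+ cDC2 and -0.40 (SE 0.097, padj = 0.00645) between young TOM- DC2 and adult TOM+ cDC2. With limma on log2(TPM + 1) the latter was -0.23 (padj = 0.0816).

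**Figure D2:**
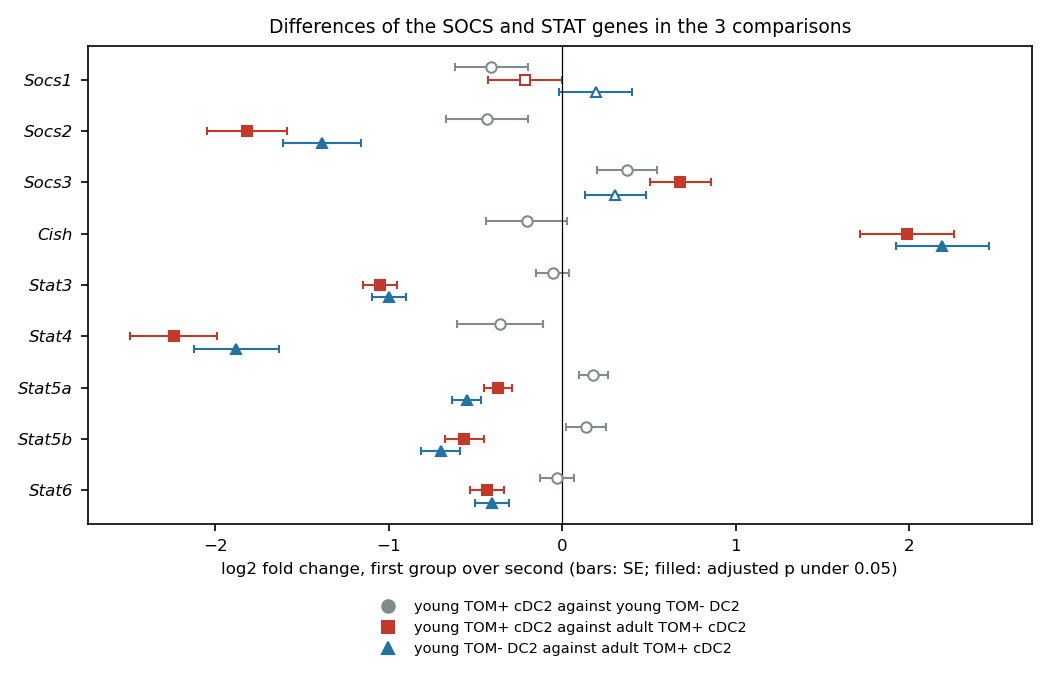
log2 fold change with SE (x axis) of the 9 genes (y axis) in the 3 comparisons, first group over second, with filled symbols for a padj under 0.05. The 5 STAT genes and Socs2 lie to the left of 0 in both comparisons with adults, Cish lies near 2, and no gene is filled in the comparison of the young groups.

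Several of these genes are neighbours. In GRCm38.p6, Stat5b (chr11:100780731-100859004, minus strand), Stat5a (chr11:100859351-100885169, plus strand) and Stat3 (chr11:100886806-100939594, minus strand) follow each other, with 346 bases between Stat5b and Stat5a and 1636 between Stat5a and Stat3. Socs3 (chr11:117966079-117970336, minus strand) lies on the same chromosome. Stat4 (chr1:51987106-52107189, plus strand) is on chromosome 1. Stat6 (chr10:127642955-127660987, plus strand) and Socs2 (chr10:95383903-95417321, minus strand) are on chromosome 10, Cish (chr9:107296659-107302784, plus strand) on chromosome 9 and Socs1 (chr16:10783808-10785536, minus strand) on chromosome 16. These spans and gaps are those of RefSeq. GENCODE M21 ends Stat5b at chr11:100850724, farther from Stat5a. Stat3 and Stat5a overlap at their ends in GENCODE M21, as do Stat6 and Nab2, on opposite strands. The libraries kept no strand, and reads from such overlaps cannot be told apart.

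The families differed in how their sums moved. The 5 STAT genes summed to 374, 305.9 and 341.4 TPM in young TOM+ cDC2, 370.9, 298.9 and 369.8 in young TOM- DC2, and 492.5, 556.6 and 526.7 in adult TOM+ cDC2. Every adult library thus carried more STAT transcript than any young library, and the proportions shifted too. Stat6 made up 39.3% ± 0.251 of the sum in young TOM+ cDC2, 40.2% ± 1.17 in young TOM- DC2 and 31.1% ± 1.67 in adults, and Stat3 32.5% ± 0.805, 33.5% ± 0.572 and 39.7% ± 1.08 (SD, n = 3). Stat4 went from 3.25% ± 0.887 and 4.11% ± 1.24 to 8.95% ± 1.86.

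The 4 SOCS genes summed to 110.4, 147.6 and 143.3 TPM in young TOM+ cDC2, 104.1, 148 and 150.4 in young TOM- DC2, and 103.4, 106.5 and 119.5 in adult TOM+ cDC2. The sums overlapped between all groups, while the makeup of the sum did not stay the same. Cish made up 12.7% ± 1.2, 14.5% ± 1.91 and 3.66% ± 0.749, and Socs2 6.69% ± 1.64, 9.99% ± 1.6 and 26% ± 8.39, in young TOM+ cDC2, young TOM- DC2 and adult TOM+ cDC2. Socs3 made up 59% ± 0.629, 46.5% ± 2.22 and 41.4% ± 6.5. These sums and shares are descriptions and were not tested.

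**Figure D3:**
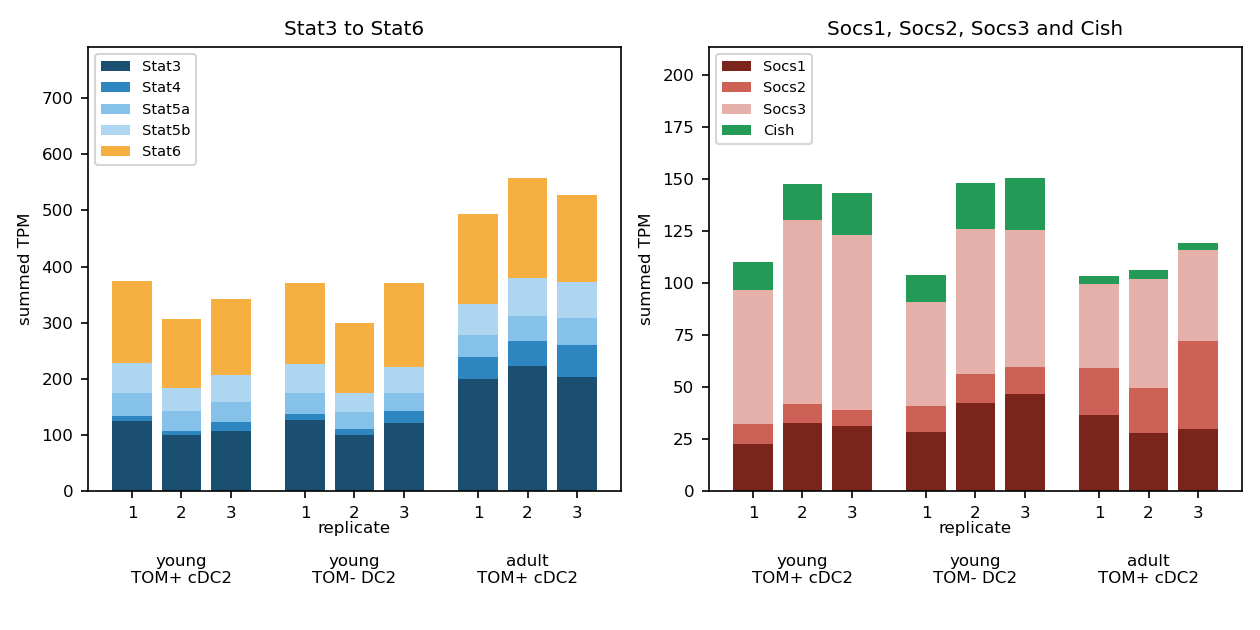
Summed TPM (y axis, from 0) of the 5 STAT genes on the left and of the 4 SOCS genes on the right, stacked by gene for each library (x axis, replicates 1 to 3 of each group). The STAT sum is 305.9 to 374 in young TOM+ cDC2 and 492.5 to 556.6 in adults, and the SOCS sums overlap while Cish shrinks and Socs2 grows in the adult bars.

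By mean TPM, the order in young TOM+ cDC2 was Stat6, Stat3, Socs3, Stat5b, Stat5a, Socs1, Cish, Stat4 and Socs2. The libraries of Stat6 and Stat3 overlapped, as did those of Cish and Stat4 and those of Stat4 and Socs2, and the other neighbours were separate. The order in young TOM- DC2 was the same but for Socs1, which stood between Stat5b and Stat5a, and there the only separate neighbours were Stat3 and Socs3, and Stat5a and Cish. In adult TOM+ cDC2 the order was Stat3, Stat6, Stat5b, Stat4, Socs3, Stat5a, Socs1, Socs2 and Cish. Stat3 and Stat6 were separate there, as were Stat6 and Stat5b, Stat5a and Socs1, and Socs2 and Cish, while the ranges from Stat5b through Stat5a, and those of Socs1 and Socs2, overlapped from neighbour to neighbour.

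Young TOM+ cDC2 and young TOM- DC2 were closest in Stat6 (log2FC -0.03, SE 0.097, padj = 0.976) and Stat3 (-0.05, SE 0.096, padj = 0.951). The largest differences were those of Socs2 (-0.43, SE 0.24, padj = 0.651), Socs1 (-0.41, SE 0.21, padj = 0.614) and Socs3 (0.37, SE 0.17, padj = 0.54), none of which passed. Stat4 differed by -0.36 (SE 0.25, padj = 0.775), Cish by -0.20 (SE 0.23, padj = 0.908), Stat5a by 0.18 (SE 0.083, padj = 0.532) and Stat5b by 0.14 (SE 0.11, padj = 0.842). Each young TOM+ library shares a number in its deposited name with a young TOM- library, and libraries with the same number deviated together from their group means. Within these pairs, TOM+ over TOM- TPM was 1.29, 1.26 and 1.27 for Socs3, 0.799, 0.775 and 0.678 for Socs1, and 0.764, 0.659 and 0.58 for Socs2. Each of these ratios thus lay on one side of 1 in 3 of 3 pairs. So did those of Stat3, Stat4, Stat5a and Stat5b, while those of Cish and Stat6 lay on both sides. The ratios of Stat3 (0.985, 0.994 and 0.888) were close to 1. A gene without a difference can also lie on one side in 3 of 3 pairs. The share of all genes that did so was not determined, and no difference is read from these ratios. With the number as a block, Socs3 differed by a log2FC of 0.38 (SE 0.095, padj = 0.058), Socs1 by -0.40 (SE 0.12, padj = 0.121) and Socs2 by -0.44 (SE 0.24, padj = 0.49), and none of the 9 genes passed.

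The spread within the young groups also followed these pairs. In TOM+ cDC2 and TOM- DC2 alike, replicate 1 had the lowest Socs1, Socs3 and Cish of its group, whereas replicate 2 had the lowest Stat3, Stat5a, Stat5b and Stat6. Genes of other cell types were measured in the same libraries. The 8 erythroid genes summed to 52.8 to 1170 TPM in young TOM- DC2, 52.8 to 96.4 in young TOM+ cDC2 and 1.39 to 13.5 in adults, where 4 of the 8 were at 0, and none of the 4 tested passed between the young groups. The 7 macrophage genes summed to 479 to 538, 363 to 394 and 264 to 328 TPM in the same order, and the 6 neutrophil genes in the tables to 0.61 to 22.6, 1.18 to 1.71 and 0.25 to 0.65 TPM. The highest erythroid and neutrophil sums were those of young TOM- DC2 replicate 1. In replicates 1, 2 and 3 of that group, Hba-a2, the most abundant erythroid gene, measured 473.24, 78.81 and 32.46 TPM. Ltf, the most abundant neutrophil gene, measured 5.38, 0.23 and 0.65 TPM. The 6 cDC1 genes summed to 202 to 216 TPM in young TOM+ cDC2 and 217 to 233 in young TOM- DC2, ranges that lay close without overlap. Of these, 1 passed between the young groups, higher in TOM- DC2, where 1.6% of all genes passed. The lists for pDC (104 to 164 TPM over all libraries), monocytes (32.6 to 72.1 TPM) and ESAM-low cDC2 (359 to 476 TPM) overlapped or lay close between the young groups. Their part in the small differences between the young groups was not tested.

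As a description over the 9 libraries, the genes whose log2(TPM + 1) followed each called gene most closely were sought among 8989 genes. For Cish these included Cmtm7 (Pearson r = 0.994) and Cox4i1 (0.992). For Socs2 they were Cd200 (0.986), Tmem150c (0.986) and Crispld2 (0.985). For Stat3 they were H2-DMb2 (0.996), Pik3cb (0.994) and Pik3ap1 (0.993), and for Stat4 Rasgef1b (0.99), Nfkbie (0.989) and Rel (0.985). All 9 points come from the same 3 groups. A gene that differs by age in the same direction can therefore score high, whatever the size of its difference. Cd200 measured 4.5, 6.88 and 21 TPM and Rel 155, 177 and 317 TPM on average in young TOM+ cDC2, young TOM- DC2 and adult TOM+ cDC2.

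The rest of the pathway was read from 9 lists of 112 genes, of which 99 were tested. Between young and adult TOM+ cDC2, 53 of the 99 passed, 14 higher in young and 39 in adult cells, against 40.6% of all genes (21% higher in young and 19.5% in adult cells). The same 40.6% is the share against which the counts of single lists in that comparison are read. The median log2FC of the 99 was -0.26, against 0.05 over all genes. Between young TOM- DC2 and adult TOM+ cDC2, 51 passed, against 36.3% of all genes, 15 higher in young (19.4% of all genes) and 36 in adult cells (16.9% of all genes). Between the young groups 5 passed, against 1.6% of all genes, and all 5 were higher in TOM- DC2. They were Ccnd2 and Fcer2a, described with their lists, and Il2rb (log2FC -5.18, padj = 0.000174), Il23a (-4.50, padj = 0.000414) and Il18r1 (-3.21, padj = 0.000992), which had too few reads for the rule on named genes and are named after their values were seen. These 3 measured 2.58 ± 0.42, 7.73 ± 3.14 and 1.57 ± 0.748 TPM in young TOM- DC2 and under 0.5 TPM in every other library. Lymphoid cells also express them. With the replicate block 8 passed, 1 of them higher in TOM+ cDC2, where 405 of all 14452 genes passed.

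The signalling core around the 5 STAT genes was divided. Of the other STATs, IRF9 and the JAKs, 5 of 7 passed between young and adult TOM+ cDC2. Stat2 and Irf9, which carry interferon signals, were higher in adults. Irf9 differed between young and adult TOM+ cDC2 by a log2FC of -0.96 (SE 0.092, padj = 8.16e-06) and Stat2 by -0.78 (SE 0.12, padj = 0.000211). The kinases Jak3, the partner of the common gamma chain, and Tyk2 were higher in young cells, by 0.52 (SE 0.099, padj = 0.00112) and 0.44 (SE 0.11, padj = 0.00669).

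Among 15 other inhibitors of cytokine signalling, 7 passed between young and adult TOM+ cDC2, 2 higher in young and 5 in adult cells, a share near the 40.6% of all genes. Usp18, which blocks the type I interferon receptor, measured 36.8 ± 3.99, 46.5 ± 1.92 and 149 ± 15.4 TPM in young TOM+ cDC2, young TOM- DC2 and adult TOM+ cDC2 (SD, n = 3), with a log2FC of -2.13 (SE 0.094, padj = 3.84e-08) between young and adult TOM+ cDC2. The phosphatase genes Ptprc and Ptpn6 were also higher in adults, with a log2FC of -0.79 (SE 0.11) and -0.69 (SE 0.14). Socs6, a further member of the SOCS family, was higher in young cells (log2FC 0.54, SE 0.15, padj = 0.0114), as was Pias2 (0.32, SE 0.095, padj = 0.0167). Of 4 genes of the ubiquitin ligase that SOCS proteins recruit, Rnf7 (0.59, padj = 0.00138) and Tceb2 (elongin B; 0.37, padj = 0.0302) were higher in young TOM+ cDC2, and none was higher in adults.

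The cytokine receptors that passed were mostly higher in adults. Of 31 tested, 18 passed between young and adult TOM+ cDC2, 2 higher in young and 16 in adult cells. Il21r, a receptor that signals through STAT3, measured 127 ± 3.72, 135 ± 19.7 and 331 ± 30.4 TPM in young TOM+ cDC2, young TOM- DC2 and adult TOM+ cDC2 (SD, n = 3; log2FC -1.51 between young and adult TOM+ cDC2, padj = 1.53e-06). Il27ra (-1.75, padj = 5.97e-05) and Csf3r (-1.28, padj = 5.1e-05) were lower in young cells from low levels. The receptors higher in young cells were Il6ra (0.39, padj = 0.0188), the binding chain for IL-6, and Csf2rb (0.35, padj = 0.00547), the signalling chain for GM-CSF, at 178 ± 0.744 TPM in young and 125 ± 2.11 in adult TOM+ cDC2. Il6st, the gene of gp130, was higher in adults (-0.97, padj = 3.92e-05), at 51.6 ± 6.6 TPM in young and 92.4 ± 8.09 in adult TOM+ cDC2. So was Il2rg, the gene of the common gamma chain (-0.71, padj = 2.45e-05). Both were outside the rule on named genes and are named after their values were seen.

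Of 11 tested cytokine ligands, 6 passed between young and adult TOM+ cDC2, 1 higher in young and 5 in adult cells. Il12b, a chain of IL-12 and IL-23, measured 19.6 ± 3.02 TPM in young and 61.4 ± 16.9 in adult TOM+ cDC2 (log2FC -1.79, padj = 3e-05). Il15 (-1.04, padj = 0.00247) and Osm (-1.003, padj = 0.000334) were also lower in young cells. Ebi3, a chain of IL-27 and IL-35, was higher in young TOM+ cDC2 (0.52, padj = 0.000391) and in young TOM- DC2 (0.64, padj = 9.58e-05).

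Genes listed as targets of the STATs went in both directions. A link between the levels of the STAT genes and those of these targets was not tested. Of 7 STAT3 targets, 4 passed between young and adult TOM+ cDC2, all higher in adults. Among them were Etv3 (log2FC -1.31, padj = 9.01e-06), Nfil3 (-1.08, padj = 0.000327) and Il1rn (-0.82, padj = 0.00276). Of 8 STAT5 targets, 3 passed, a share under the 40.6% of all genes. Pim1 (-1.05, padj = 0.000197) and Ccnd2 (-0.56, padj = 0.0012) were lower in young cells, and Myc was higher (0.34, padj = 0.0365). Ccnd2 was also lower in young TOM+ cDC2 than in young TOM- DC2 (-0.49, padj = 0.0396), at 29.3 ± 1.46 and 42 ± 4.3 TPM (SD, n = 3).

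Of 11 STAT6 targets, 5 passed between young and adult TOM+ cDC2, 3 higher in young and 2 in adult cells, a share near the 40.6% of all genes. Mgl2 measured 23.5 ± 6, 31.6 ± 5.95 and 5.32 ± 0.596 TPM in young TOM+ cDC2, young TOM- DC2 and adult TOM+ cDC2 (SD, n = 3; log2FC 2.09 between young and adult TOM+ cDC2, padj = 4.06e-05), and its level is uncertain, since Clec10a is a near-copy whose reads the counting could split. Pdcd1lg2, the gene of PD-L2, was lower in young cells (-1.52, padj = 3.99e-06). Fcer2a, the gene of CD23 and a B cell gene as well, measured 0.747 ± 0.0451, 7.07 ± 1.22 and 2.64 ± 0.38 TPM, and was lower in young TOM+ cDC2 than in young TOM- DC2 by a log2FC of -3.27 (SE 0.22, padj = 7.64e-06). The 6 listed B cell genes summed to 61 to 70.7, 70 to 80.8 and 41.1 to 54 TPM in the same order, and 4 of them were under 1 TPM in each group. Of 5 STAT4 targets, 3 passed: Tbx21 (-0.59, padj = 0.0103) and Hlx (-0.28, padj = 0.0309) were lower in young TOM+ cDC2, and Il18rap was higher (0.95, padj = 0.0472).

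**Figure D4:**
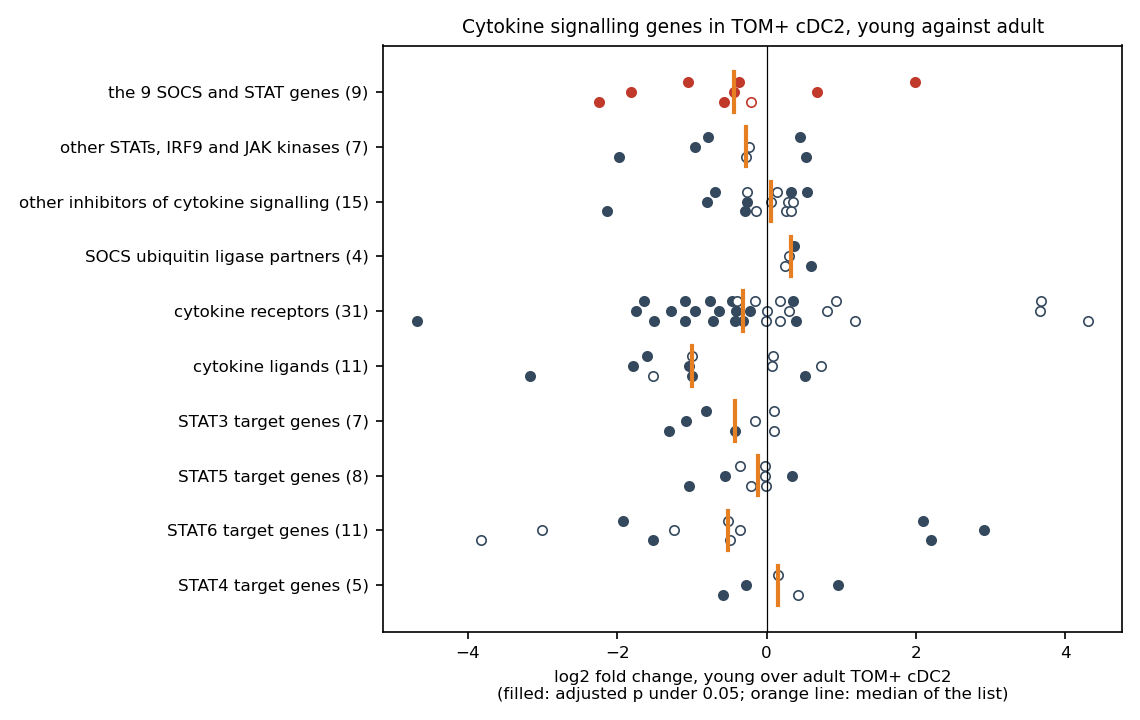
log2 fold change (x axis) of every tested gene of the 9 lists and of the 9 SOCS and STAT genes (rows, number of genes in brackets) in young over adult TOM+ cDC2, with filled points for a padj under 0.05 and an orange line at the median of each row. Receptors and ligands lie mostly to the left of 0, the 4 ubiquitin ligase genes lie to the right, and the STAT6 targets lie on both sides.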

How the data were processed

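mRNA of sorted spleen cells was copied with SMARTseq v4 chemistry and sequenced by the authors, who aligned reads to mm10. STAR and RSEM are the tools named in the submitters' processing notes, and their versions are not given in the sources used here. The authors deposited STAR counts of uniquely mapped reads per gene, without normalization, and the unstranded column was used, since each stranded column held about as many reads as the other. STAR's summary lines (26.1% to 31.6% of reads on no gene) were left out. The authors also deposited RSEM expected counts (rounded before testing), TPM (used for levels) and FPKM (not used). Single-cell data were not analysed here.

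Groups came from the cell type and age labels. Counts of all 9 libraries were tested in R 4.3.3 with edgeR 4.0.16 (quasi-likelihood, TMM, average count of at least 1, no block, Benjamini-Hochberg adjustment over 14452 genes), and the script was tested on simulated data. TMM factors were 1.025 to 1.085 in young and 0.894 to 0.928 in adult libraries. Alternatives were other scalings, filters, RSEM expected counts, DESeq2 1.42.0, limma 3.58.1 on log2(TPM + 1) or log2(TPM + 0.1), fits of 2 groups only, leaving out each library, and a replicate block. The block is the number in the deposited names (81, 91 or 92), whose meaning is not given. Deviations from group means correlated at 0.746, 0.501 and 0.517 over 10112 genes in same-numbered young libraries and at -0.517 to 0.163 in others. The young libraries were therefore treated as paired in this alternative fit, but not in the main fit. Block terms summed to 0. The adult names carry 91, 92 and 95, but adults were given no block term, and the blocked comparisons with adults rest on that choice. No libraries were copies of each other (lowest chi-square per gene 8.743).

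The genes and lists were chosen with earlier results of these data known. From each list and comparison, up to 3 higher and 3 lower genes with the largest log2FC among those past the threshold with an average count of at least 50 could be named, for each called gene the 3 genes with the highest Pearson r (mean TPM of at least 5), and of a marker list the most abundant gene or genes at 0. Some genes that meet this rule are not reported here.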

Additional observations from a re-analysis of the deposited data

How the results depend on the processing

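Over 19 other settings, 502 of 513 log2FC of the 9 genes kept their direction and their side of the threshold, 6 no longer passed, 2 newly passed and 3 changed sign. The changes of sign were in values near 0 between the young groups: Stat6 at 0.02 without young TOM+ cDC2 replicate 2 and at 0.0365 without young TOM- DC2 replicate 3, and Stat3 at 0.00123 without young TOM- DC2 replicate 3. With each library left out in turn, these ranged from -0.0831 to 0.0365 for Stat6 and from -0.127 to 0.00123 for Stat3. With limma on log2(TPM + 1) and log2(TPM + 0.1), Stat5a (-0.22 and -0.23, padj = 0.125 and 0.123) and Stat5b (-0.40 and -0.41, padj = 0.0578 and 0.0567) no longer passed between young and adult TOM+ cDC2, nor Stat6 (-0.23 and -0.24, padj = 0.0816 and 0.0818) between young TOM- DC2 and adult TOM+ cDC2; the cause was not tested. In these fits 4074 of 6047 and 4159 of 6122 passing genes were higher in young than in adult TOM+ cDC2, against 3039 of 5861 with edgeR, and 4318 of 5915 and 4384 of 5931 were higher in young TOM- DC2, against 2809 of 5247. The median log2FC of all genes in the comparisons with adults was 0.10 and 0.14 with limma on log2(TPM + 1) and 0.17 and 0.22 on log2(TPM + 0.1), against 0.05 and 0.07 with edgeR.

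With the replicate block, 8 pathway genes instead of 5 passed between the young groups. Between young TOM- DC2 and adult TOM+ cDC2, Socs3 passed without being called, and Stat3 was called. Nothing else changed in which of the 9 genes passed or were called. Over all genes, 405 passed between the young groups with the block and 367 with DESeq2, against 231, and 147 without young TOM+ cDC2 replicate 3, 152 without young TOM+ cDC2 replicate 2 and 157 without young TOM- DC2 replicate 3. Depth limited Cish in adults the most, at 62 to 74 reads a library.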
